A study of Mus musculus with 2 samples.

Results

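The collagen genes of the mouse are described here as they were read in injured spinal cord. The members were all gene symbols made of Col, a type number, the letter a and a chain number, which gave 44 of the 32285 genes in the files. They comprised 11 genes of fibrillar collagens, 6 of the type IV collagens of basement membranes and 27 of other collagens. The pattern rests on gene names alone, but it was chosen with earlier results of these data known.

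C57BL/6 wild-type mice aged 6 to 8 weeks received a contusion at T10, a thoracic level of the cord, from a 5 g rod of 1 mm width let fall from 6 cm. All mice had isoflurane and then pentobarbital for surgery, and antibiotics before and after it. The PBS group then had 5 daily tail-vein injections of 100 µL phosphate-buffered saline. The AEVs group had the same volume with 100 µg of protein in athlete-derived extracellular vesicles (AEVs), which are membrane particles shed by cells. Nuclei were isolated on day 7 from frozen cord, and each group gave 1 library made from the pooled nuclei of 3 mice. Uninjured cord was not analysed here. With 1 library per group no test across mice was possible, and every difference given is a difference between these libraries.

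Collagens are secreted or membrane-bound matrix proteins whose chains wind around each other into a stiff helix. Fibrillar collagens such as types I and III assemble into the load-bearing fibers of scars, type IV collagens form the sheet-like network of basement membranes, and further families decorate fibrils, build short networks or cross the cell membrane. In the healthy cord collagens lie mostly in the meninges and around vessels, and after injury fibroblasts lay them down in a fibrotic scar in the lesion.

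Filtering left 13851 PBS and 15637 AEVs nuclei, in which a median of 2587 and 2408 unique molecular identifiers (UMIs, counted RNA molecules) were read per nucleus. The libraries shared 177 barcodes. Nuclei were clustered without the collagen genes and named by marker genes that include no collagen, with the ending -like because the names rest on RNA alone. There were 953 PBS and 553 AEVs fibroblast-like nuclei, 6.88% and 3.54% of the libraries, and their median depths were 2071 and 1716 UMIs. Endothelial-like nuclei numbered 235 and 349, Schwann-like nuclei 157 and 188, and astrocyte-like nuclei 925 and 1148. Of the 12 named classes, 11 had at least 100 nuclei in each library, and the mural-like class had 51 and 82.

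Levels below are UMIs of a gene per 1000000 UMIs of the class and library (CPM), ratios are AEVs over PBS on the log2 scale, and PBS values come first. Intervals are exact 95% intervals that cover counting error only and leave out differences between mice and between pools. In values over all nuclei, fewer cells of a type and less RNA per cell cannot be told apart.

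Collagen transcripts were less abundant in the AEVs library, and the fibrillar family differed most. All collagens together made up 1029.2 and 732 CPM of the kept nuclei, from 72472 and 50403 UMIs. Fibrillar collagens stood at 531 and 331 CPM, a log2 ratio of -0.68 (-0.70 to -0.66). Basement membrane collagens stood at 105 and 79.8 CPM, a ratio of -0.39 (-0.44 to -0.34). The other collagens stood at 393 and 321 CPM, a ratio of -0.29 (-0.32 to -0.27). All 3 families were thus lower in the AEVs library, by unequal amounts. The fibrillar ratio was -0.40 when the PBS and AEVs levels of finer clusters were averaged with 1 set of weights, and -1.38 when every nucleus counted equally.

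Within the fibrillar family the interstitial chains of types I and III carried the difference. Their 3 genes together stood at 286 and 70.9 CPM, a ratio of -2.01 (-2.06 to -1.97), and their share of all collagen UMIs was 27.8% and 9.68%. Col11a1, a chain of the minor fibrillar type XI, held 11221 and 12713 UMIs and went the other way, at 159 and 185 CPM with a ratio of 0.21 (0.18 to 0.25). Without Col11a1 the fibrillar family stood at 372 and 147 CPM, a ratio of -1.34 (-1.37 to -1.31).

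Gene by gene, 43 of the 44 members had at least 20 UMIs over both libraries and were given a ratio. Of these, 5 were at least 2-fold lower in the AEVs library and 1 was at least 2-fold higher. Over all 21015 genes with as many UMIs, 2.13% were at least 2-fold lower and 4.45% at least 2-fold higher. The median ratio was -0.34 over the members and 0.10 over all those genes. Another 19 members were lower with an interval under 0, and 10 were higher with an interval over 0. The interval held 0 for 8 members. Col10a1, the network collagen of growth-plate cartilage, had 4 and 6 UMIs and is given no ratio.

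**Figure D1:**
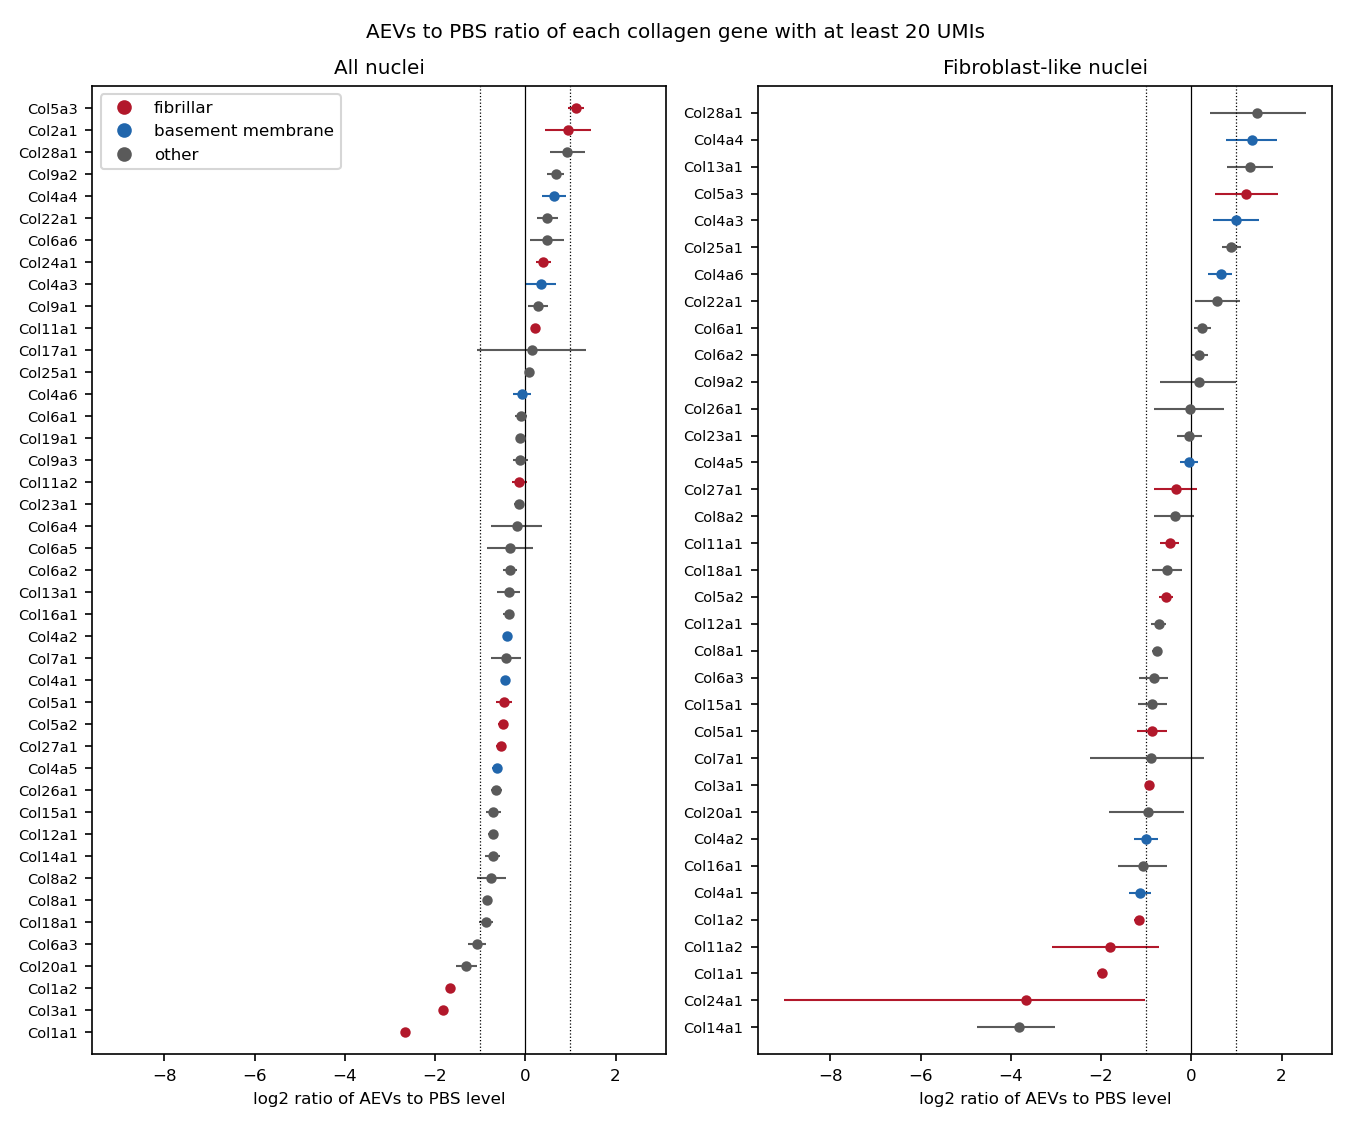
Log2 ratio of the AEVs to the PBS level for each collagen gene with at least 20 UMIs over both libraries, in all nuclei (left, 43 genes) and in fibroblast-like nuclei (right), colored by family. Points are ratios, bars are 95% counting intervals and dotted lines mark 2-fold; Col6a5, with 0 AEVs UMIs in fibroblast-like nuclei, has no point on the right. Col1a1, Col3a1 and Col1a2 lie farthest left in all nuclei, and Col14a1 in fibroblast-like nuclei.

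The 5 lower members were Col1a1, Col1a2, Col3a1, Col6a3 and Col20a1. Col1a1, the gene of the alpha 1 chain of type I collagen (chr11:94936224-94953042), had 7709 and 1188 UMIs, or 109 and 17.3 CPM, a ratio of -2.67 (-2.75 to -2.58). Col3a1, which encodes type III collagen, stood at 71.9 and 20.4 CPM (-1.82, -1.90 to -1.73). Col1a2, the partner chain of type I, stood at 105 and 33.2 CPM (-1.66, -1.73 to -1.59). With 1 mix of finer clusters in both libraries the ratio was -1.90 for Col1a1 and -1.03 for Col1a2. These genes make the fibers of scar tissue, and their shift was the widest among the members. Col20a1, a fibril-associated collagen, followed at 8.09 and 3.27 CPM (-1.31, -1.54 to -1.08), and Col6a3, a chain of the beaded-filament type VI, at 8.61 and 4.11 CPM (-1.07, -1.27 to -0.86). The only member at least 2-fold higher was Col5a3, a type V chain, at 5.52 and 12.0 CPM (1.12, 0.94 to 1.30).

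Promoter sequences are given for Col3a1, Col5a3 and, further below, Col13a1, which were picked by hand and whose windows held no annotated exon. Other members with a window are not shown. The windows are the 250 bases before the RefSeq start on the build GRCm38.p6, read in the direction of the gene, with capitals marking motifs. These were the TATA box, searched as TATAAA or its reverse TTTATA, the CCAAT box, searched as CCAAT or its reverse ATTGG, and the GC box, searched as GGGCGG or its reverse CCGCCC, with no overlaps in the windows shown. The Col3a1 window lies on the plus strand at chr1:45311288-45311537 and the Col5a3 window on the minus strand at chr9:20815068-20815317.
Col3a1: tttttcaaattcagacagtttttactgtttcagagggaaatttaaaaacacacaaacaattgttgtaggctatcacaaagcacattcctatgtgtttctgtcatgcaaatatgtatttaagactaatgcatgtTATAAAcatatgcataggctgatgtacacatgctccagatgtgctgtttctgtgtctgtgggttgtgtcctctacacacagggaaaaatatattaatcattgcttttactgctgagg
Col5a3: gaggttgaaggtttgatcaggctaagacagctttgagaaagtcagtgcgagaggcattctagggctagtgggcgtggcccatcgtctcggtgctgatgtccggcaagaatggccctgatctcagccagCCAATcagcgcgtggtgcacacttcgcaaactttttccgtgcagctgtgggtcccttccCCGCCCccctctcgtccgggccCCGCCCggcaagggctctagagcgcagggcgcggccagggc
The Col3a1 window held TATAAA beginning 117 bases before the start. The Col5a3 window held CCAAT at 122 bases and CCGCCC at 63 and 41 bases before the start. Over 32851 windows of the same length, 12.4% held the TATA box, 33.8% the CCAAT box and 32.7% the GC box. Of the 35 members with a window, 5, 13 and 21 held them. A match is a run of letters and was not tied to any factor in these data.

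The members were not spread evenly over the cell classes. Of the 44 members, 19 had their highest pooled level in the fibroblast-like class, 8 in the Schwann-like class, 5 in oligodendrocyte precursor-like nuclei, 4 in the mural-like class, 3 in ependymal-like nuclei, 2 each in neuron-like and microglia-like nuclei and 1 in endothelial-like nuclei. The highest class was the same in both libraries for 31 members. The scar-forming types I, III, V (Col5a1 and Col5a2), VI (Col6a1, Col6a2 and Col6a3) and XII belonged to the fibroblast-like set. Of the Col19a1 UMIs, 97.7% and 97.9% lay in neuron-like nuclei.

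**Figure D2:**
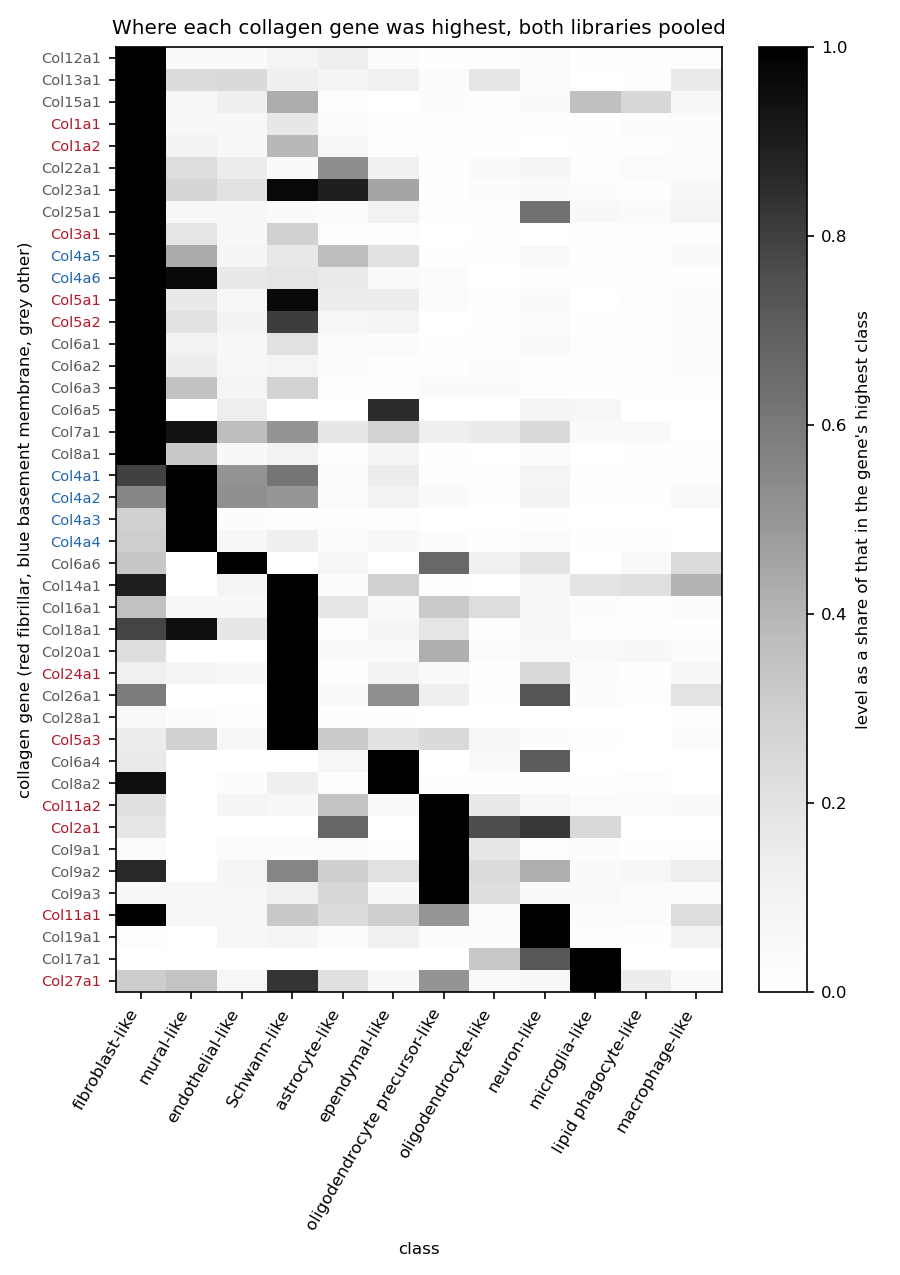
Pooled level of each collagen gene (rows, colored by family) in each cell class (columns), both libraries together, as a share of the level in the gene's highest class (grey scale from 0 to 1). The left column is black for the 19 genes highest in fibroblast-like nuclei, and separate blocks mark Schwann-like, oligodendrocyte precursor-like and neuron-like nuclei.

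The fibroblast-like class held 38.5% of all collagen UMIs of the PBS library and 16.8% of those of the AEVs library. Its nuclei were also fewer in the AEVs library, as given above, and its own level of all collagens was 11882 and 6582.9 CPM. The neuron-like class, which is large and deep, held 43.4% and 62.1%, with collagen levels of 740 and 745 CPM and a ratio of 0.01 (-0.01 to 0.03). Collagen UMIs per fibroblast-like nucleus had a median of 17 in the PBS library and 9 in the AEVs library.

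**Figure D3:**
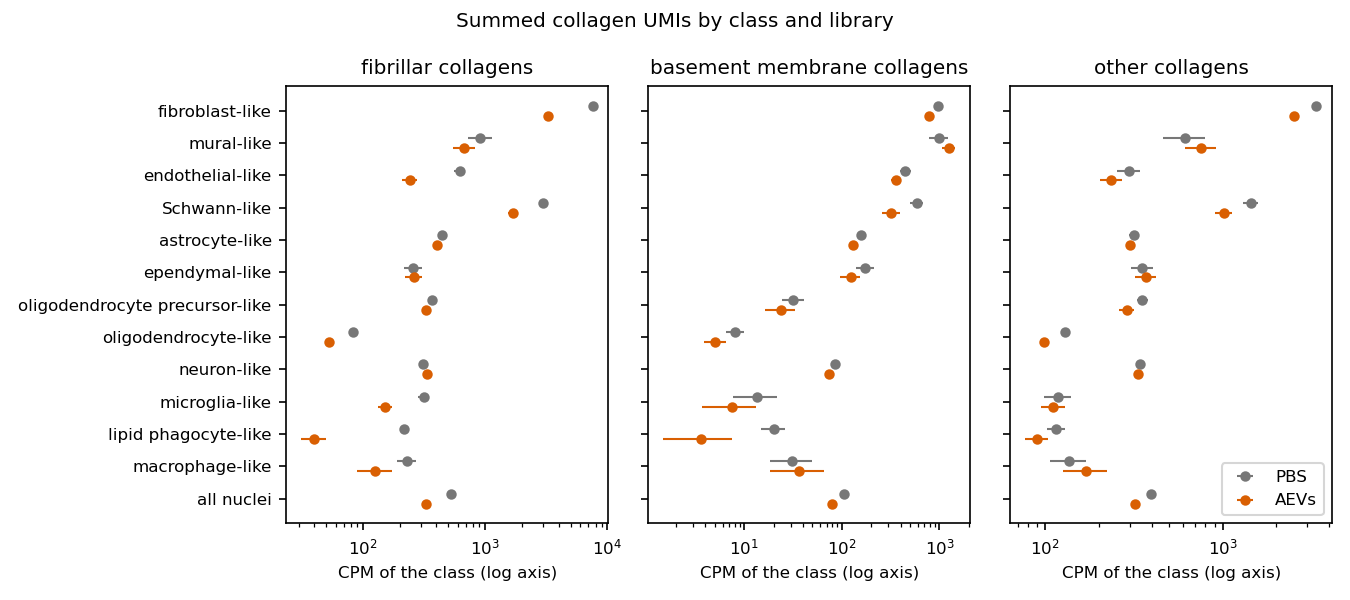
Summed UMIs of fibrillar, basement membrane and other collagens (3 panels, CPM of the class on log axes) in each cell class and in all nuclei, grey for PBS and orange for AEVs. Points are levels and bars are 95% counting intervals. The fibroblast-like class has the highest fibrillar level in both libraries, 7569.8 and 3261.5 CPM.

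In fibroblast-like nuclei all 3 families were lower in the AEVs library, the fibrillar one by the most. Fibrillar collagens stood at 7569.8 and 3261.5 CPM, a ratio of -1.21 (-1.26 to -1.17). Basement membrane collagens stood at 967 and 789 CPM (-0.29, -0.40 to -0.19), and the other collagens at 3345.2 and 2532.2 CPM (-0.40, -0.46 to -0.34). With nuclei thinned to 1000 UMIs the basement membrane ratio was -0.02. Within the class 36 members had at least 20 UMIs, of which 9 were at least 2-fold lower (8 without 1 PBS nucleus described below) and 4 at least 2-fold higher in the AEVs library. Over the 12317 genes with as many UMIs in the class, 3.82% were at least 2-fold lower and 4.81% at least 2-fold higher. The median was -0.55 over the members and 0.09 over those genes. The remaining 8 members, among them Col2a1, Col9a1, Col9a3 and Col19a1, had under 20 UMIs in the class.

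Among fibrillar chains of the class, Col1a1 stood at 2539.6 and 645 CPM, a ratio of -1.98 (-2.08 to -1.87). Col1a2 stood at 2326.3 and 1030.7 CPM (-1.17, -1.26 to -1.09), and Col3a1 at 1654.7 and 865 CPM (-0.94, -1.03 to -0.84). Col1a1 was therefore lower by more than its partner chains. The difference between the Col1a1 and Col1a2 ratios was -0.80 (-0.94 to -0.67), and that between Col1a1 and Col3a1 was -1.04 (-1.18 to -0.90). A UMI of Col1a1 was seen in 79.2% and 43.4% of fibroblast-like nuclei, and in 62.0% and 27% after thinning. In oligodendrocyte-like nuclei, taken as a class that should lack the gene, it was seen in 3.57% and 0.453%, at median depths of 2378.5 and 2006 UMIs.

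The chains of type V, which start and limit the width of type I fibers, differed less. Col5a2 stood at 537 and 366 CPM (-0.55, -0.71 to -0.40), and Col5a1 at 132 and 72.2 CPM (-0.86, -1.21 to -0.53). Col5a3, the third type V chain, was higher, with 33 and 42 UMIs and a ratio of 1.22 (0.52 to 1.92). Col11a1 stood at 280 and 200 CPM (-0.48, -0.69 to -0.27), opposite to its direction in neuron-like nuclei. Its partner Col11a2 had 51 and 8 UMIs (-1.80, -3.09 to -0.72), but 26 of the 51 lay in 1 nucleus, without which the ratio was -0.78 (-2.14 to 0.41). Col24a1, a minor fibrillar collagen, had 23 and 1 UMIs (-3.66, -9.02 to -1.03). Col27a1, a fibrillar collagen of cartilage, stood at 54.9 and 43.5 CPM (-0.34, -0.82 to 0.13).

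A single PBS fibroblast-like nucleus held 1348 fibrillar UMIs of its 7517 UMIs and was singled out after its values were seen. It held 833 UMIs of Col1a1 and 424 of Col1a2 but 0 of Col3a1, together with 60 of Bglap (osteocalcin, a protein of bone) and 23 of Runx2, a regulator of bone-forming cells. The next nucleus of the class had 263 fibrillar UMIs. That nucleus carried 14% of the Col1a1 UMIs of its class and library. It was the only fibroblast-like nucleus with 10 or more Bglap UMIs, and the AEVs library had 0. With it left out, the class ratio was -1.77 for Col1a1, -1.06 for Col1a2 and -1.11 for the fibrillar family.

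The 6 type IV genes, which encode basement membrane chains, split into opposite directions in fibroblast-like nuclei. Col4a1, whose chain pairs with that of Col4a2 in nearly all basement membranes, stood at 309 and 141 CPM (-1.14, -1.38 to -0.90). Col4a2 stood at 238 and 119 CPM (-1.0, -1.27 to -0.74). Both were lower by about the same amount, with a difference between their ratios of -0.13 (-0.48 to 0.21). The 2-fold difference of Col4a1 became -0.80 after thinning, and that of Col4a2, just at 2-fold, became -0.88 under a stricter nucleus filter. Col4a3 stood at 27.2 and 54.4 CPM (1.0, 0.49 to 1.51), just under 2-fold, and Col4a4 at 20 and 50.5 CPM (1.34, 0.77 to 1.91), or 2.21 after thinning. These chains, known from the kidney filter, were both higher in the AEVs library, and the difference between their ratios was -0.34 (-1.07 to 0.39). Col4a6 stood at 109 and 170 CPM (0.65, 0.38 to 0.91), while Col4a5 stood at 264 and 255 CPM (-0.05, -0.25 to 0.14), and at 0.19 with nuclei weighted equally.

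The type IV genes lie as head-to-head neighbours whose starts face away from each other on opposite strands. In GENCODE M21 the starts of Col4a1 and Col4a2 on chromosome 8 are 21 bases apart with the transcribed parts overlapping, those of Col4a4 and Col4a3 on chromosome 1 are 72 bases apart, and those of Col4a6 and Col4a5 on chromosome X are 1309 bases apart. In fibroblast-like nuclei the first and second neighbours had ratios on the same side of 0, whereas Col4a5 and Col4a6 differed by -0.70 (-1.03 to -0.38). The whole interval between Col4a4 and Col4a3 (GRCm38.p6, chr1:82586850-82586920, plus strand) is shown because both genes start from its ends. It held none of the 3 motifs, so it carries no capitals.
Between Col4a4 and Col4a3: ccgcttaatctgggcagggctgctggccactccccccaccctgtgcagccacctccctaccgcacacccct

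The other families did not share 1 direction in fibroblast-like nuclei. Fibril-associated collagens, which sit on the surface of fibers, stood at 782 and 429 CPM (-0.87, -1.01 to -0.73). Col14a1, which binds type I fibers and decorin, had 334 and 13 UMIs, or 142 and 10.1 CPM, a ratio of -3.82 (-4.74 to -3.02), the lowest of the members with UMIs in both libraries of the class. It was seen in 13.1% and 1.63% of the class, or 7.70% and 0.730% after thinning, and in 0.155% and 0.0544% of oligodendrocyte-like nuclei. Col12a1, a related fibril-associated collagen of strained tissue, stood at 496 and 302 CPM (-0.72, -0.89 to -0.55). Col16a1 stood at 61.7 and 29.5 CPM (-1.06, -1.62 to -0.54), and at -0.51 without the mitochondrial limit. Col20a1 had 60 and 17 UMIs (-0.95, -1.82 to -0.16). Col22a1, found at tissue junctions, stood at 33.2 and 49.7 CPM (0.58, 0.08 to 1.08), and Col9a2, a chain of the cartilage type IX, at 14.5 and 16.3 CPM (0.17, -0.69 to 1.00).

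Type VI collagen, a beaded-filament network near the cell surface, did not show 1 common shift. Col6a1 stood at 245 and 290 CPM (0.24, 0.05 to 0.43) and Col6a2 at 237 and 270 CPM (0.18, -0.01 to 0.38), but Col6a3, the third chain of the same assembly, stood at 153 and 86.2 CPM (-0.83, -1.15 to -0.51). The Col6a1 and Col6a3 ratios differed by 1.07 (0.71 to 1.43). The Col6a1 value turned to -0.22 after thinning and to -0.29 with nuclei weighted equally, and that of Col6a2 to -0.05 and -0.22. Col6a5 had 38 UMIs in PBS and 0 in AEVs fibroblast-like nuclei, at least 6.94-fold lower against a floor of 3 UMIs in that library. The related Col6a4 and Col6a6 had 62 and 53 UMIs (-0.19, -0.75 to 0.36) and 106 and 144 UMIs (0.47, 0.10 to 0.85) over all nuclei and too few in the class for a ratio.

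Collagens that cross the membrane were higher as a group, at 311 and 471 CPM (0.60, 0.44 to 0.75). Col13a1, a membrane collagen of cell contacts, stood at 25.1 and 62.1 CPM (1.31, 0.80 to 1.82) and was seen in 4.20% and 11.8% of the class, or 2.38% and 8.03% after thinning. Oligodendrocyte-like nuclei had 141 and 32 Col13a1 UMIs (-2.18, -2.78 to -1.62), seen in 1.93% and 0.453%, so that over all nuclei the gene was lower, at 4.16 and 3.21 CPM (-0.37, -0.63 to -0.12). Col25a1, best known as the precursor of an amyloid plaque component, stood at 148 and 274 CPM (0.89, 0.67 to 1.11). Col23a1 stood at 138 and 134 CPM (-0.04, -0.32 to 0.23, and 0.21 after thinning), and Col17a1, the hemidesmosome collagen, had 13 and 14 UMIs over all nuclei (0.14, -1.06 to 1.35) and 0 in the class. The Col13a1 window lies on the minus strand at chr10:61979109-61979358 and held TATAAA beginning 237 bases before the start.
Col13a1: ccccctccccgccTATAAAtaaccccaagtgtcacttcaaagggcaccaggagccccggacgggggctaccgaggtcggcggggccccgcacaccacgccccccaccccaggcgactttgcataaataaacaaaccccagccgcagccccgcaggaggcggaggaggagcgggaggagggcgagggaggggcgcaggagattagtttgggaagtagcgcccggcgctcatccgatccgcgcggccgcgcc

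Short-chain network collagens, which form lattices in vessel walls and the eye, were lower, with a summed ratio of -0.73 (-0.84 to -0.63). Col8a1 stood at 1223.6 and 725 CPM (-0.75, -0.86 to -0.65) and Col8a2 at 63.4 and 48.9 CPM (-0.37, -0.82 to 0.06). The multiplexins of basement membranes, which release anti-angiogenic fragments, were lower too, with Col15a1 at 153 and 84.7 CPM (-0.86, -1.18 to -0.54) and Col18a1 at 122 and 83.9 CPM (-0.54, -0.87 to -0.21). Col7a1, the anchoring fibril collagen of skin, had 27 and 8 UMIs (-0.89, -2.24 to 0.29). Col28a1 had 14 and 21 UMIs (1.45, 0.41 to 2.54), and Col26a1 43 and 23 UMIs (-0.03, -0.83 to 0.73).

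Markers of other cells also differed within the fibroblast-like class. The 10 macrophage markers summed to 763 and 284 CPM, with 6 of 9 measured markers lower. The T or NK cell markers summed to 40.0 and 9.32 CPM, the neutrophil markers to 168 and 102 CPM, and the oligodendrocyte markers to 2884.3 and 2120.5 CPM. Microglia, Schwann and erythroid markers were lower as well. The mural markers were higher, at 660 and 1092.1 CPM. Sums were also higher for oligodendrocyte precursor (608 and 839 CPM), astrocyte (1419 and 1739.1 CPM), lipid phagocyte (1040.2 and 1245.1 CPM) and B cell markers (518 and 692 CPM). However, 5 of the 8 lipid phagocyte markers were lower, and only 1 of the 5 B cell markers had enough UMIs for a ratio. The 10 fibroblast markers summed to 6404.9 and 7987.2 CPM, but 5 of them were lower, and Dcn alone stood at 1919.9 and 3369.5 CPM. No macrophage, mural or fibroblast marker was at 0 in both libraries. The part of these differences in the collagen values was not tested.

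At a finer clustering nearly all of the class lay in 4 clusters whose shares differed between the libraries. Levels are over all nuclei of a cluster, which for cluster 5 were 410 and 162, of which 363 and 135 belonged to the class. Cluster 5, led by Dcn, Bgn and Serpinh1, held 38.1% and 24.4% of the class, and its median depths of 905.5 and 791 UMIs were the lowest of the 4. All 10 astrocyte markers were raised in cluster 5 beside the 10 fibroblast markers, and their part in its levels was not tested. Cluster 6, led by Slc47a1, Smoc2 and Sfrp4 among others, held 30.2% and 16.8%. Cluster 7, led by Ranbp3l, Slc6a20a and Slc7a11, held 22.2% and 44.1%, and cluster 22, with Dcn, Lum and Ccl11 among its leading genes, held 9.13% and 13.4%. Leading genes describe the clusters and were not tested. Mean collagen levels of the class therefore mix clusters in unequal shares.

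Col1a1 was lower in clusters 5, 6 and 7 and lay closer to parity in cluster 22. In cluster 5 it stood at 4579 and 466 CPM (-3.30, -3.57 to -3.03), but the nucleus with bone genes held 32.8% of the PBS UMIs there, and without it the values were 3117.8 and 466 CPM (-2.74, -3.02 to -2.48). In cluster 6 it stood at 2432.8 and 1060.5 CPM (-1.20, -1.36 to -1.04), in cluster 7 at 1380.4 and 480 CPM (-1.52, -1.74 to -1.31) and in cluster 22 at 725 and 583 CPM (-0.31, -0.69 to 0.05). Col3a1 differed in a like order, with ratios of -1.88, -0.40, -0.72 and -0.16. Its levels were 1801.3 and 489 CPM in cluster 5 and 2030.3 and 1535.1 CPM in cluster 6. The PBS library thus had its highest Col1a1 level in cluster 5, and the AEVs library in cluster 6.

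Several further collagens were unevenly spread over the clusters. Col14a1 was found mostly in cluster 6, at 254 and 23.4 CPM (-3.44, -4.67 to -2.44), and in cluster 5, at 108 and 23.3 CPM. In cluster 6 Col25a1 was higher, at 288 and 929 CPM (1.69, 1.46 to 1.92), as were Col6a1, at 323 and 674 CPM (1.06, 0.81 to 1.31), and Col6a2, at 360 and 647 CPM (0.85, 0.60 to 1.09). Outside cluster 6, Col6a1 stood at 253 and 163 CPM in cluster 5 and at 137 and 132 CPM in cluster 7. In cluster 22 it stood at 92.2 and 161 CPM (0.80, -0.08 to 1.70). Col13a1 was read mainly in cluster 7, at 95.6 and 147 CPM (0.62, 0.09 to 1.15), below its ratio of 1.31 in the whole class. Cluster 7 also held most Col4a3 UMIs, at 93.8 and 108 CPM (0.20, -0.37 to 0.77). Col4a4 stood there at 44.4 and 95.6 CPM (1.11, 0.39 to 1.86) and Col4a5 at 776 and 525 CPM (-0.56, -0.79 to -0.34). The higher Col4a3 level of the class was thus not seen at its size within the cluster that held most of the gene's UMIs. Col15a1 was highest in cluster 22, at 791 and 232 CPM (-1.77, -2.31 to -1.26).

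**Figure D4:**
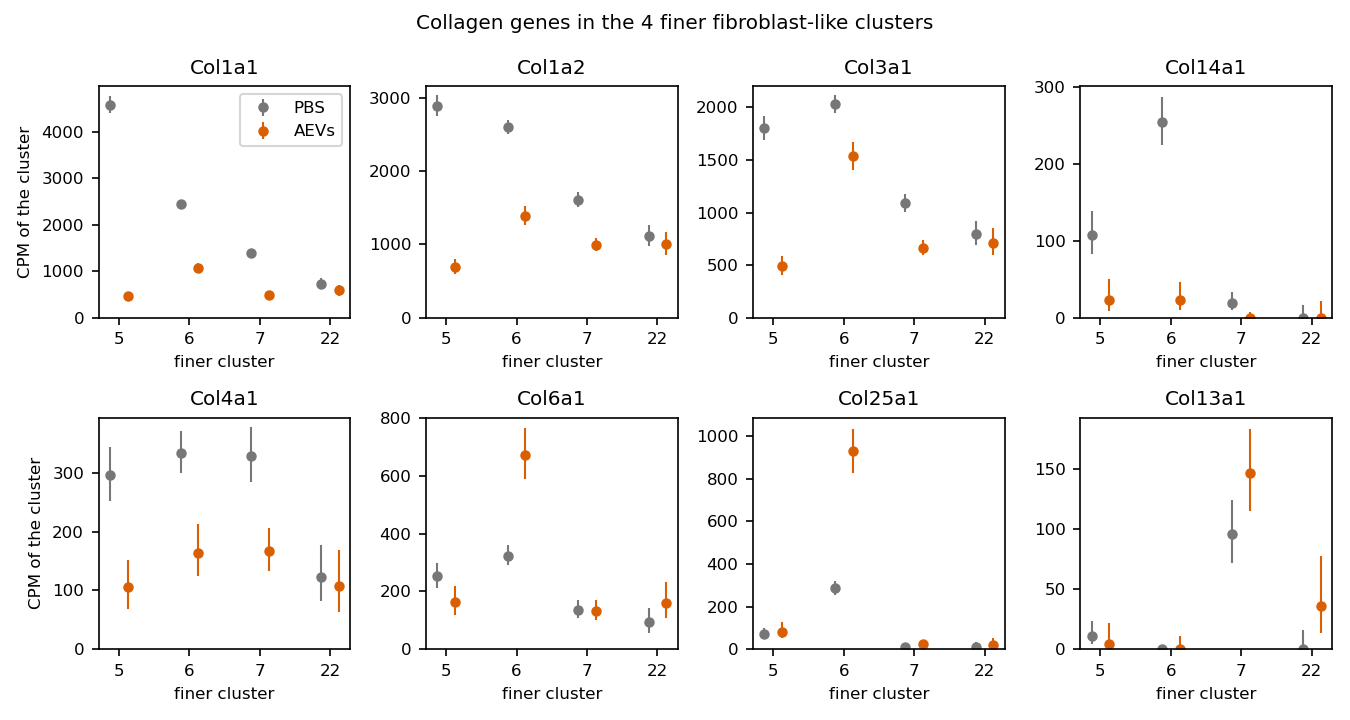
Levels of 8 collagen genes (panels, CPM of the cluster, each with its own axis from 0) in the 4 finer fibroblast-like clusters, grey for PBS and orange for AEVs, with 95% counting intervals. Col1a1 in cluster 5 is at 4579 and 466 CPM (3117.8 CPM in PBS without 1 nucleus), and Col25a1 and Col6a1 are higher in the AEVs library in cluster 6.

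In endothelial-like nuclei, which line vessels and rest on a type IV basement membrane, fibrillar collagens stood at 618 and 242 CPM (-1.35, -1.61 to -1.10). Basement membrane collagens stood at 448 and 358 CPM (-0.32, -0.57 to -0.08). Of 16 members with at least 20 UMIs, 7 were at least 2-fold lower and 0 at least 2-fold higher, against 2.61% and 4.86% of the 9531 genes with as many UMIs. With a minimum of 100 UMIs 3 were lower, and these were Col1a1, Col1a2 and Col3a1. The type IV genes of the vessel wall differed little: Col4a1 stood at 173 and 150 CPM (-0.21, -0.60 to 0.18) and Col4a2 at 205 and 171 CPM (-0.27, -0.63 to 0.09). Col1a1, at 209 and 39.3 CPM, Col1a2, at 163 and 54.0 CPM, and Col3a1, at 148 and 41.7 CPM, made up 520 and 135 CPM of the fibrillar sum. Their pooled levels were 0.0593, 0.0536 and 0.063 of those in fibroblast-like nuclei and are not read as endothelial expression. Erythroid markers in the class summed to 2029.5 and 765 CPM and macrophage markers to 515 and 269 CPM, and their part in the result was not tested. In the small mural-like class, the highest for both genes, Col4a1 stood at 323 and 309 CPM and Col4a2 at 312 and 384 CPM.

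Types I and III were lower in all 11 classes with at least 100 nuclei, with every interval under 0. The ratio of their 3 genes together was -1.36 in fibroblast-like, -1.24 in Schwann-like, -1.95 in endothelial-like, -2.67 in neuron-like and -3.47 in lipid phagocyte-like nuclei, and -0.61 in astrocyte-like nuclei. In neuron-like nuclei the level was 33.4 and 5.23 CPM, against 6520.7 and 2539.9 CPM in fibroblast-like nuclei. Levels this far below those of the fibroblast-like class may be free RNA and are not read as expression. Summed fibrillar collagens had an interval under 0 in 8 of the 11 classes, above 0 in neuron-like nuclei and with 0 inside in ependymal-like and oligodendrocyte precursor-like nuclei. Basement membrane collagens had an interval under 0 in 8 of 11 classes and other collagens in 7.

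The balance of the type I chains was compared as the percentage of Col1a2 among Col1a1 and Col1a2 UMIs. In classes with type I levels far below those of the fibroblast-like class it may be that of free RNA, which was not tested. Col1a2 made up 47.8% of Col1a1 and Col1a2 UMIs in PBS fibroblast-like nuclei (46.9 to 48.7) and 61.5% in AEVs ones (59.4 to 63.6). Neuron-like nuclei had 46.2% and 62.2%, close to the fibroblast-like values of the same library. Lipid phagocyte-like nuclei lay lower in the PBS library, at 38.3% (33 to 43.7), and had 57.9% (33.5 to 79.7) in the AEVs library. The percentage was higher in astrocyte-like nuclei, at 63.5% (60 to 66.9) and 75.9% (72.5 to 79.1), in Schwann-like nuclei, at 65.9% and 78.5%, and in oligodendrocyte-like nuclei, at 56.7% (51.8 to 61.5) and 72.5% (62.8 to 80.9). Without the nucleus with bone genes the PBS fibroblast-like value was 49.5% (48.6 to 50.5). A shift toward Col1a2 in the AEVs library was seen in the point values of each named class except the microglia-like class, which had 45.3% and 40.0% from 53 and 15 UMIs. Few AEVs UMIs also lay behind other values, with intervals of 27.7 to 84.8 (macrophage-like), 49.2 to 95.3 (ependymal-like) and 58.7 to 99.8 (oligodendrocyte precursor-like).

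**Figure D5:**
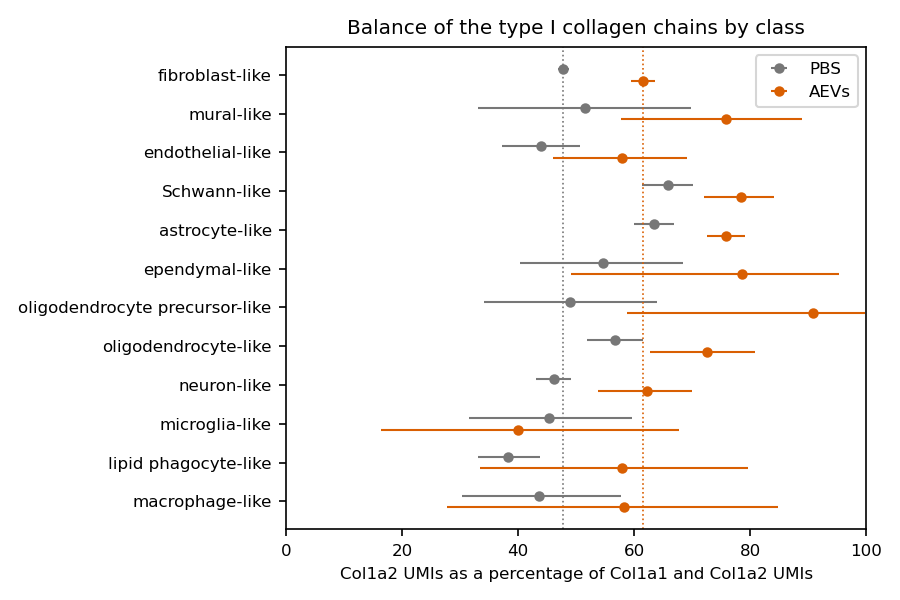
Col1a2 UMIs as a percentage of Col1a1 and Col1a2 UMIs (x axis) in each named class (rows), grey for PBS and orange for AEVs, with exact 95% binomial intervals. Dotted lines mark the fibroblast-like values of 47.8% and 61.5%, and Schwann-like, astrocyte-like, oligodendrocyte-like, ependymal-like, mural-like and oligodendrocyte precursor-like values lie to the right of them in both libraries, the last 3 from few UMIs. The lipid phagocyte-like PBS value, 38.3%, lies to the left.

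In astrocyte-like nuclei the 2 type I chains differed unequally. Col1a2 had 485 and 508 UMIs, or 132 and 119 CPM, a ratio of -0.15 (-0.33 to 0.04). Col1a1 had 279 and 161 UMIs (-1.01, -1.29 to -0.72) and Col3a1 143 and 18 UMIs (-3.20, -4.00 to -2.49). There were 3.39 and 28.2 Col1a2 UMIs per Col3a1 UMI, against 1.41 and 1.19 in fibroblast-like nuclei. Among astrocyte-like nuclei without any Col1a1 or Col3a1 UMI, 755 and 1012 in number, 296 and 406 Col1a2 UMIs were counted. No other class was counted in this way, and the source of these UMIs was not tested. The class held 6.56% of the PBS and 22.2% of the AEVs Col1a2 UMIs. Its Col1a2 level was under 0.25 of that in fibroblast-like nuclei and is not read as expression. These values were looked at after the class ratios were seen.

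Col5a3 had a ratio above 0 in each class given here, but of these only the astrocyte-like and Schwann-like levels are read as expression. In astrocyte-like nuclei it stood at 23.4 and 62.2 CPM (1.41, 1.05 to 1.78) and was seen in 7.14% and 16.2%, or 2.54% and 6.02% after thinning, at median depths of 3409 and 2844 UMIs. In oligodendrocyte precursor-like nuclei it stood at 23.8 and 50.2 CPM (1.08, 0.52 to 1.65), and in neuron-like nuclei at 2.68 and 4.19 CPM (0.64, 0.29 to 1.00). Oligodendrocyte-like nuclei had 46 and 172 UMIs (1.86, 1.38 to 2.36), seen in 0.976% and 3.01%, at a level of 0.0624 of the highest class that is not read as expression. The highest class was the Schwann-like one, at 119 and 167 CPM (0.49, -0.15 to 1.14).

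Schwann-like nuclei, the myelin-forming cells of peripheral nerve and roots, had the highest pooled level of 8 members. Their cluster also had 9 of the 10 fibroblast markers raised, and the part of this in the values below was not tested. Col28a1, a beaded collagen of peripheral nerve, stood at 144 and 281 CPM (0.96, 0.43 to 1.52), and 25 of its 86 AEVs UMIs came from 1 nucleus. Without the richest nucleus of each library its ratio was 0.62. Col14a1 stood at 176 and 35.9 CPM (-2.29, -3.38 to -1.34), so that it was lower here as in fibroblast-like nuclei. Col18a1 stood at 189 and 84.9 CPM (-1.15, -1.88 to -0.47), but at 1.10 without the mitochondrial limit, from 4 and 8 UMIs, and -1.75 with nuclei weighted equally. Col20a1 stood at 138 and 52.3 CPM (-1.40, -2.33 to -0.54). Col3a1, which was highest in fibroblast-like nuclei, stood at 554 and 225 CPM (-1.30, -1.72 to -0.89). The Col20a1 ratio was -0.84 after thinning, and that of Col3a1 was -0.82 under the stricter filter and -1.92 with nuclei weighted equally. Col16a1 stood at 144 and 140 CPM (-0.04, -0.68 to 0.60), but at 2.10 without the mitochondrial limit, from 3 and 12 UMIs. Without that limit nuclei were clustered and named anew, so for Col18a1 and Col16a1 the class was not the same set of nuclei.

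Neuron-like nuclei expressed collagens outside the scar families. Col11a1 stood at 230 and 277 CPM (0.27, 0.23 to 0.31). Col19a1, a fibril-associated collagen known for its role in synapse formation, stood at 81.9 and 74.7 CPM (-0.13, -0.20 to -0.06), and Col25a1 at 121 and 123 CPM (0.03, -0.03 to 0.08). Scaling by the median ratio of genes lowers every log2 ratio of this class by 0.11, and those of the oligodendrocyte-like class by 0.12. Over all nuclei Col25a1 stood at 83.4 and 89.0 CPM (0.09), a difference that the same scaling brought to -0.00, and Col19a1 at 50.6 and 46.6 CPM (-0.12). Col26a1 stood at 27.8 and 17.5 CPM (-0.67, -0.80 to -0.53), Col24a1 at 11.5 and 15.8 CPM (0.46, 0.29 to 0.63) and Col2a1, the cartilage fibril collagen, at 0.706 and 1.76 CPM (1.32, 0.69 to 1.98) from 30 and 74 UMIs, or 2.37 after thinning, from 2 and 14 UMIs.

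Glial and ependymal classes each held few collagens at their highest level. In oligodendrocyte precursor-like nuclei the 3 type IX genes and Col11a2 had their highest levels. Col9a1 stood at 77.1 and 75.3 CPM (-0.03, -0.41 to 0.34), but at 1.20 after thinning, from 15 and 30 UMIs. Col9a3 stood at 96.8 and 62.4 CPM (-0.63, -1.02 to -0.26) and Col9a2 at 14.5 and 21.5 CPM (0.57, -0.22 to 1.37). Col11a2 stood there at 77.1 and 73.9 CPM (-0.06, -0.44 to 0.31). In microglia-like nuclei Col27a1 stood at 230 and 120 CPM (-0.94, -1.22 to -0.66). In ependymal-like nuclei Col8a2 stood at 70.1 and 54.1 CPM (-0.37, -1.10 to 0.35), with 0.23 under the stricter filter and -1.39 after thinning. Col11a1 stood there at 43.6 and 99.8 CPM (1.20, 0.48 to 1.96), but 26 of its 59 AEVs UMIs lay in 1 nucleus, and the ratio was 0.64 without the richest nuclei and -2.57, from 5 PBS UMIs, after thinning.

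Over all nuclei, the most abundant members not yet given at that scale were Col8a1 at 59.5 and 33.0 CPM (-0.85, -0.92 to -0.77), Col4a2 at 36.5 and 27.7 CPM (-0.40), Col4a1 at 31.2 and 22.9 CPM (-0.45) and Col4a5 at 26.4 and 17.1 CPM (-0.63). With the same mix of finer clusters in both libraries the Col8a1 ratio was -0.25.

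Genes that make, bind, accompany or cut collagen were counted by lists. Of 25 processing enzymes and chaperones measured in fibroblast-like nuclei, 4 were at least 2-fold lower and 0 higher, with a median of -0.07, against 3.82% and 4.81% of all genes of the class, which serve for each list in it. Serpinh1, the collagen chaperone, stood at 609 and 208 CPM (-1.55, -1.74 to -1.36) and Tll1, a procollagen protease, at 144 and 30.3 CPM (-2.25, -2.76 to -1.77). The cross-linking enzymes Loxl1 and Loxl2 both had a ratio of -1.30. At the upper end of the list were P3h2, a prolyl hydroxylase acting on collagen, at 31.5 and 60.6 CPM (0.94, 0.47 to 1.42), and Colgalt1 (0.22, -0.18 to 0.61). Of 10 collagen receptors 0 passed 2-fold, with Itga11 and Lair1 lowest (-0.96 and -0.79) and Itga10 and Ddr1 highest (0.73 and 0.44).

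Of 20 fibrotic matrix partners in the class, 1 was at least 2-fold lower and 2 were higher. Postn, a matricellular protein of scars, stood at 134 and 24.9 CPM (-2.43, -3.00 to -1.90), while Thbs1 stood at 122 and 291 CPM and Fbln2 at 55.8 and 133 CPM, both with a ratio of 1.25. Lum followed Postn at -0.80. Of 12 basement membrane partners 0 passed 2-fold, from Nid1 (-0.77) and Nid2 (-0.70) to Lama1 (0.57) and Hspg2 (0.45). Of 10 matrix-degrading enzymes 5 were at least 2-fold lower and 0 higher, with a median of -0.82, and the interval of 1 of the 5, Mmp15, held 0 (-1.03, -2.47 to 0.22). Mmp3 had 177 and 2 UMIs (-5.60, -8.66 to -3.73) and Mmp13, the collagenase of mouse tissue, 120 and 2 UMIs (-5.04, -8.10 to -3.15). Mmp2 (-0.35, -0.81 to 0.09), Mmp16 (-0.24, -0.52 to 0.04) and Mmp11 (0.22, -0.78 to 1.19) had intervals that held 0.

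Over all nuclei the same lists had 2 of 27 processing genes, 0 of 11 receptors, 1 of 20 fibrotic partners, 1 of 15 basement membrane partners and 3 of 12 degrading enzymes at least 2-fold lower, and 0 of each higher, against 2.13% and 4.45% of all genes. Loxl1 (-1.78) and Serpinh1 (-1.64) were the processing genes, and Lum (-1.60), Nid1 (-1.01), Mmp13 (-3.99), Mmp3 (-3.49) and Fap (-1.41) the others. In endothelial-like nuclei 2 of 14 processing genes were lower and 1 higher, 2 of 17 fibrotic partners lower and 4 higher, 1 of 13 basement membrane partners lower, and 0 of 8 receptors and 0 of 3 degrading enzymes passed 2-fold, against 2.61% lower and 4.86% higher of all genes. The highest fibrotic partners there were Ccn2, at 45.5 and 254 CPM (2.48, 1.90 to 3.12), and Eln, elastin, at 77.5 and 257 CPM (1.73, 1.26 to 2.22).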

How the data were processed

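Nuclei of injured cord from PBS and AEVs mice were analysed as 2 libraries, 1 per group, each a pool of 3 mice. The deposited matrices hold unscaled UMI counts, 1 whole number for each gene in each barcode, with at least 500 UMIs in every barcode. Libraries were made with a droplet kit reading the 3' end of polyadenylated RNA, per the labels' protocols. The build mm10 and Seurat, without a version, are named in the submitters' processing notes, while not given in the sources used here: the aligner, annotation, strand setting and any removal of free RNA or doublets.

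Of 15325 PBS and 17055 AEVs barcodes with 82953601 and 81875882 UMIs, nuclei were kept with at least 300 genes, at least 500 UMIs and under 5% mitochondrial UMIs, and Scrublet calls (scanpy 1.11.5) were removed, 943 (6.37%) and 1312 (7.74%). Both libraries were clustered together with the Leiden method (igraph 0.11.9, resolution 1, 2000 variable genes without collagens, 30 components, 20 neighbours), without integration. The 28 clusters were named by markers of 17 cell types, at least 3 of which had to be raised 2-fold, and 844 and 586 nuclei stayed unnamed. Part of the naming rule was set after the clusters were seen. UMIs were summed per class and library. Levels carry exact Poisson, ratios exact conditional binomial and shares exact Clopper-Pearson intervals (scipy 1.17.1), and the code was tested on simulated data.

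A ratio was given from 20 UMIs over both libraries, and 0 UMIs in a library gave a bound against 3 UMIs. Values are given for the 3 members with the most UMIs of each family, for members with at least 50 UMIs in the class where they were highest, and for members at least 2-fold apart within a class whose interval leaves out equality, with at least 50 UMIs in the higher library and at least 0.25 of the level of the highest class. Other members are given so that each is accounted for. Of each companion list the 2 highest and 2 lowest genes with at least 50 UMIs are named. The members and lists were chosen with earlier results of these data known. No reference sample of uninjured cord entered.

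All 44 gene identifiers matched GENCODE M21, and 35 members had a RefSeq promoter window (GRCm38.p6). Another annotated gene overlaps 28 members, so their counts may include its reads. Alternatives are described in the closing section.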

Additional observations from a re-analysis of the deposited data

How the results depend on the processing

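Counting error is the only error these libraries allow to be stated, so no interval covers mice or pools. No paired analysis was possible because each group is 1 library. Depth limits genes with under 20 UMIs in a class, and classes of few nuclei.

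Fibrillar collagens over all nuclei (-0.68) became -0.60 under the stricter filter (1000 UMIs, 600 genes, 2% mitochondrial UMIs), -1.12 thinned to 1000 UMIs, -0.77 scaled by the median ratio of genes, -1.38 with nuclei weighted equally, and -0.45 with 1 mix of clusters in both libraries. Alternatives chosen after seeing the data gave -0.40 with 1 mix of finer clusters and -0.64 without the richest nuclei. Basement membrane collagens (-0.39) became -0.58 thinned, -0.48 scaled, -0.55 weighted equally, -0.24 with 1 mix and -0.28 with 1 finer mix. Other collagens (-0.29) became -0.55, -0.38, -0.63, -0.13 and -0.07 in the same order. In fibroblast-like nuclei fibrillar collagens (-1.21) became -1.10 under the stricter filter, -1.14 with collagens in the clustering, -1.46 weighted equally and -1.14 without the richest nuclei. Basement membrane collagens (-0.29) became -0.02 thinned and -0.12 weighted equally, and other collagens (-0.40) became -0.32 with doublet calls kept, -0.33 with collagens in the clustering and -0.55 weighted equally. None of these summed values changed sign.

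Members at least 2-fold higher in fibroblast-like nuclei numbered 2 instead of 4 with a minimum of 100 UMIs. In endothelial-like nuclei, those lower numbered 12 with a minimum of 1 UMI and 3 with 100, instead of 7, and those higher numbered 8 with 1 UMI instead of 0. Of all genes there, 12.3% were lower and 19.5% higher with a minimum of 1 UMI, and 1.39% and 1.18% with 100. Of 458 values of single genes under the alternatives, 385 stayed within the counting interval of the value as reported. The sign changed in 24, of which 10 belonged to values whose interval leaves out 0 and 14 to 6 values whose interval holds 0 (Col9a1, Col8a2, Col16a1, Col6a2, Col23a1 and Col4a5 in the classes given above). Col19a1 over all nuclei (-0.12) became 0.07 thinned, 0.13 weighted equally, 0.01 with 1 mix of clusters and 0.04 with 1 finer mix. Col6a1 in fibroblast-like nuclei (0.24) became -0.22 thinned and -0.29 weighted equally. Col11a1 in ependymal-like nuclei (1.20) became -0.17 without the mitochondrial limit, -2.57 thinned and -0.23 weighted equally. In alternatives that changed the filter, kept doublet calls or kept collagens, nuclei were clustered and named anew, so classes could hold different nuclei. Col18a1 in Schwann-like nuclei (-1.15) became 1.10 without the mitochondrial limit, where 4 PBS UMIs were left in the class as named anew. The cause of the other changes was not tested.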
